A study of Rattus norvegicus with 32 samples.

Results

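Of the 17327 genes in the count table, the 4 described here encode C/EBP transcription factors: Cebpa, Cebpb, Cebpd and Cebpg. They were chosen by their symbols as the C/EBP family of the liver, and because Cebpb stood lower in 60-day male knockouts. The members were thus selected on the counts of 60-day males, and all values of Cebpb in those animals, and all values of the 4 genes in knockout against wild type at that age and sex, are given as a description with no test. All 4 passed the filter on low counts, as did 11002 genes in all. The study sequenced messenger RNA from livers of rats of the Sprague Dawley strain from Charles River under basal conditions, in 32 libraries, with 4 in each of 8 groups. KO rats carried a disruption of Serpina6 made with CRISPR/Cas9. Serpina6 encodes corticosteroid-binding globulin (CBG), made in liver and known as the main carrier of corticosterone in plasma. The groups were KO males, WT males, KO females and WT females at 30 days of age, and the same 4 combinations at 60 days. How many founder animals the KO line goes back to is not stated in the labels.

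C/EBP proteins bind DNA as dimers through a basic region and a leucine zipper, and members pair with each other and with other leucine zipper proteins. In liver, C/EBP alpha is known for holding hepatocytes in a differentiated, metabolic state, whereas C/EBP beta and C/EBP delta are known for the acute phase response, in which interleukin 6, glucocorticoids and cyclic AMP raise them. C/EBP gamma lacks a strong activation domain and is known mainly as a dimer partner, including of ATF4.

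Gene reads numbered 12951969 to 17133332 per library at 60 days and 16806943 to 21954929 at 30 days. Levels are CPM, that is counts relative to library size, scaled by the trimmed mean of M-values, given as mean ± SD with 4 libraries per group. Fold changes are on the log2 scale with their SE. They and their p-values come from edgeR's quasi-likelihood test with all 32 libraries, and p was adjusted over 11002 genes by the Benjamini-Hochberg method with a threshold of 0.05. The sources used here do not say for each library that it came from another animal, so the p-values measure the spread between these samples. Serpina6 averaged 62.8 ± 24.5 CPM in 60-day KO males and 487 ± 63.4 CPM in WT males, and its highest KO library lay below its lowest WT library in each of the 4 combinations of sex and age. The 10 hepatocyte markers summed to between 170500 and 252900 CPM and none was at 0 in any group. Markers of Kupffer cells, which also express C/EBP genes, summed to between 433.8 and 1286 CPM, and those of neutrophils to at most 5.851 CPM, with Ltf at 0 in every group. Replicate 1 of the 60-day KO females carried photoreceptor transcripts that summed to 2083 CPM, against at most 9.908 CPM in any library of the other groups. Where a list gene named below lost its call without that library, this is stated.

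The proximal promoters are shown because they are the regulatory sequence at hand for these genes. The table of RefSeq promoters of build GRCr8 held Cebpa, Cebpb and Cebpg, and had no entry for Cebpd. The 250 bases before each transcript start follow, 5′ to 3′ on the strand of the gene, with capitals marking the motifs found. Cebpa lies on the plus strand at chr1:96896334-96896583, Cebpb on the plus strand at chr3:176816755-176817004 and Cebpg on the minus strand at chr1:96829737-96829986.
Cebpa: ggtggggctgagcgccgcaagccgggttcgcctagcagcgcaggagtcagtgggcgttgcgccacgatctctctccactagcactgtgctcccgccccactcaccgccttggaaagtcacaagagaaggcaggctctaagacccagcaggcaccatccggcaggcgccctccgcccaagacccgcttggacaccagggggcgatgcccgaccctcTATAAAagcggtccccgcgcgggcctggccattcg
Cebpb: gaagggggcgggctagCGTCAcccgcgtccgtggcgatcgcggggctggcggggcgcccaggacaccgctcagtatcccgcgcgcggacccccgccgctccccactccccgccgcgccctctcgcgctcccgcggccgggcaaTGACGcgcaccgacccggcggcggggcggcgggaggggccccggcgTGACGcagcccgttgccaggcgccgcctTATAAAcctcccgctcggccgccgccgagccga
Cebpg: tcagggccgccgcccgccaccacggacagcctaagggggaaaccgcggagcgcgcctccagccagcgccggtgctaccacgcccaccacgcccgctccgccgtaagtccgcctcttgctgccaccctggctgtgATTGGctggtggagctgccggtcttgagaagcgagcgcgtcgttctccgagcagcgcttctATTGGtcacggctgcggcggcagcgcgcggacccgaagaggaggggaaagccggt
In Cebpa the capitals mark TATAAA at 35 to 30 bases before the start. In Cebpb they mark TATAAA at 33 to 28 bases before the start and TGACG, the core of a cyclic AMP response element, at 107 to 103 and 61 to 57 bases on the gene's strand and at 234 to 230 bases on the other. In Cebpg they mark CCAAT, read on the other strand, at 116 to 112 and at 55 to 51 bases. Of 33469 windows of the same length in the table, 12.9% held TATAAA, 18.2% TGACG and 34.0% CCAAT, on either strand. The palindromic C/EBP motif TTGCGCAA (0.14% of windows), the full cyclic AMP element TGACGTCA (1.59%), the glucocorticoid receptor core AGAACA (17.5%) and the STAT motif TTCNNNGAA (7.67%) were not found in the 3 windows. TGACG is contained in TGACGTCA and was added to the search after the sequences were seen. The windows were 67.2% (Cebpa), 80.0% (Cebpb) and 70.4% (Cebpg) G and C, against a median of 51.2%. These matches describe letters only and say nothing of binding.

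Over the 32 libraries Cebpa ranged from 190 to 401 CPM, Cebpb from 32.2 to 83.1 CPM, Cebpg from 31.8 to 49.6 CPM and Cebpd from 2.37 to 6.84 CPM. Cebpd rested on 30 to 105 reads per library, so its values carry more counting error than those of the other members, which had at least 413 reads. The level per kilobase of the RefSeq transcript was computed for 3 members and not for Cebpg. Of these it was highest for Cebpa and lowest for Cebpd. Group means were 95.9 to 134 CPM for Cebpa, 26.1 to 52.5 CPM for Cebpb and 2.52 to 4.16 CPM for Cebpd. The ratio of the highest to the lowest group mean was 2.01 for Cebpb, 1.65 for Cebpd, 1.40 for Cebpa and 1.304 for Cebpg. Fewer cells of a type and less RNA per cell cannot be told apart in these bulk samples.

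**Figure D1:**
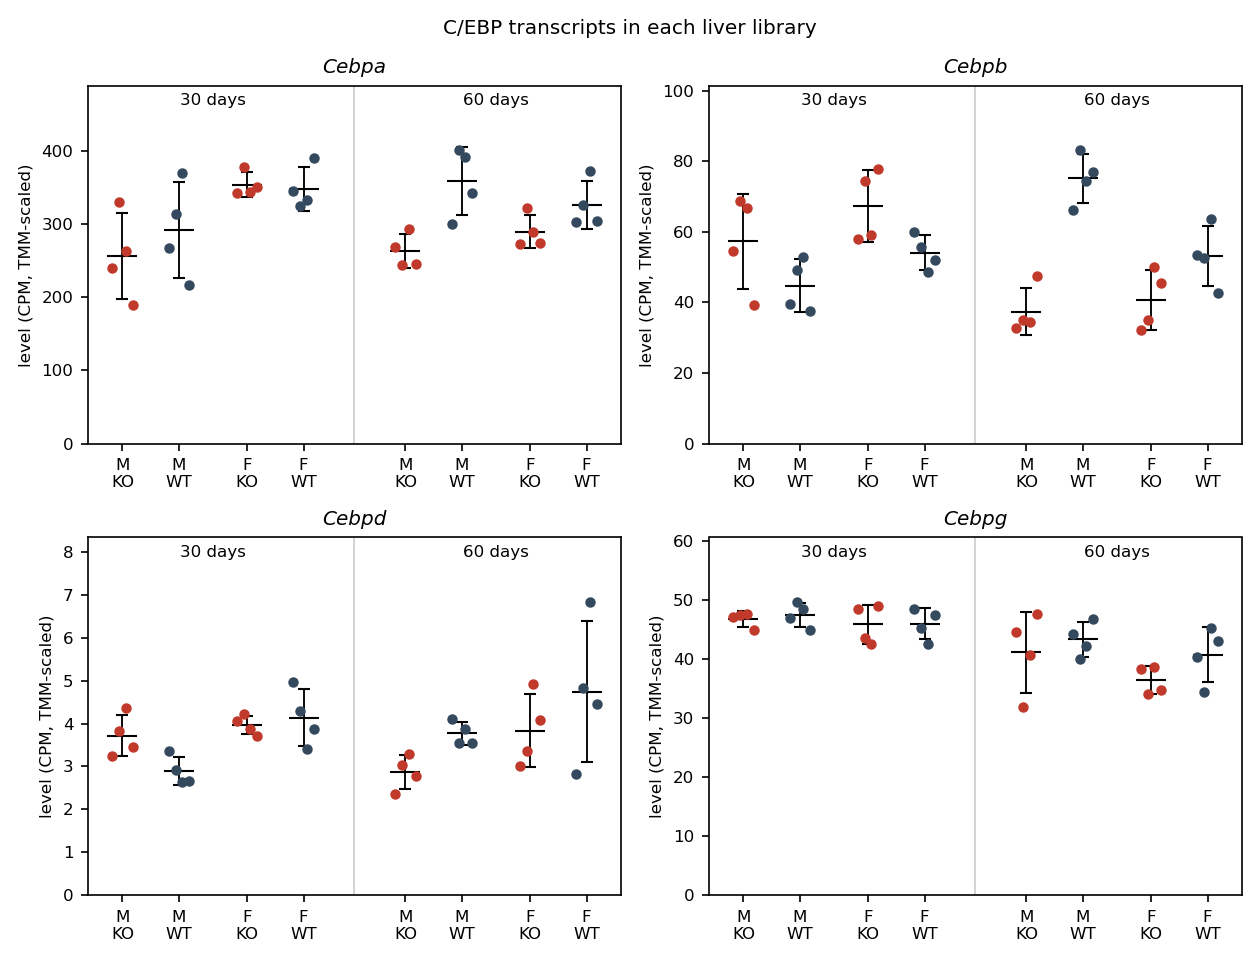
Level in CPM (vertical axes, from 0) of Cebpa, Cebpb, Cebpd and Cebpg in each of the 32 libraries. Points are libraries, horizontal marks with bars are the mean ± SD of 4, red is KO and dark blue is WT. The 4 libraries of WT males at 60 days hold the highest group mean of Cebpb, 75.2 CPM, and the 4 of KO males at that age the lowest, 37.4 CPM.

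Cebpb encodes C/EBP beta, the member most closely tied to hormone and cytokine signals. In 60-day males it stood at 32.6, 35.1, 34.4 and 47.4 CPM in KO livers, against 66.3, 83.1, 74.4 and 77.0 CPM in WT livers. Every KO library lay below every WT library. The means were 37.4 ± 6.77 CPM in KO males and 75.2 ± 6.96 CPM in WT males, a 2.01-fold lower level (log2 fold change -1.01 ± 0.17, no test). Of the 11002 genes tested, 0.209% passed the threshold in this comparison, which the choice of members used.

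In 60-day females Cebpb stood at 32.2, 35.1, 50.1 and 45.5 CPM in KO livers, against 53.3, 52.6, 63.6 and 42.7 CPM in WT livers. The groups overlapped, since 2 KO libraries lay above the lowest WT library. The log2 fold change was -0.38 ± 0.16 with a 95% interval of -0.72 to -0.04 (adjusted p = 0.175, unadjusted p = 0.0279), so it did not pass the threshold over all genes.

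At 30 days the difference in Cebpb had the other sign in both sexes and did not pass the threshold. KO males had 54.5, 68.8, 66.7 and 39.4 CPM, against 39.4, 49.3, 52.9 and 37.5 CPM in WT males, and 3 KO libraries lay above all WT libraries (0.36 ± 0.16, 95% interval 0.02 to 0.69, adjusted p = 0.813). KO females had 57.8, 74.3, 59.2 and 77.7 CPM, against 60.0, 55.8, 48.5 and 51.9 CPM in WT females, and 2 KO libraries lay above all WT libraries (0.32 ± 0.16, 95% interval -0.02 to 0.65, adjusted p = 0.492). The effect of genotype at 30 days differed between males and females by 0.04 ± 0.23 (adjusted p = 0.994). The titles of 30-day samples end in a hyphen and a number, which was 2 for all 4 samples of KO females and 1 for 3 of the 4 of WT females. With it as a covariate the difference in females was 0.48 (adjusted p = 0.308).

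With age, Cebpb fell in KO females, whereas no change was detected in WT females. The mean was 40.7 ± 8.48 CPM in KO females at 60 days and 67.3 ± 10.2 CPM at 30 days, 1.65-fold lower, and each 60-day library lay below each 30-day library (-0.72 ± 0.16, adjusted p = 0.0016). In WT females it was 53.1 ± 8.53 CPM at 60 days and 54.0 ± 4.95 CPM at 30 days, with a log2 fold change of -0.03 ± 0.16 and a 95% interval of -0.36 to 0.31 (adjusted p = 0.925). The difference between the 2 changes with age, -0.70 ± 0.23, did not pass the threshold (adjusted p = 0.0918, unadjusted p = 0.00528), so the genotypes are not shown to differ in this respect. In males, where the values are a description, the 60-day level was 37.4 ± 6.77 CPM in KO, against 57.3 ± 13.5 CPM at 30 days (-0.62 ± 0.16). In WT males it was 75.2 ± 6.96 CPM at 60 days, against 44.8 ± 7.48 CPM at 30 days (0.75 ± 0.16), and the groups did not overlap. The fall in KO females passed the threshold in all 14 alternative analyses, among them the fit without the library that carried photoreceptor transcripts (-0.63, adjusted p = 0.00995). Library depth and the form of the sample titles changed with age, and their part in these differences cannot be told apart from age.

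Males and females were not shown to differ in Cebpb at 30 days. KO males had 57.3 ± 13.5 CPM and KO females 67.3 ± 10.2 CPM (-0.23 ± 0.16, adjusted p = 0.602). WT males had 44.8 ± 7.48 CPM and WT females 54.0 ± 4.95 CPM (-0.27 ± 0.16, adjusted p = 0.524). At 60 days, as a description, WT males stood above WT females without overlap, at 75.2 ± 6.96 CPM against 53.1 ± 8.53 CPM (0.50 ± 0.16), and KO males had 37.4 ± 6.77 CPM against 40.7 ± 8.48 CPM in KO females (-0.12 ± 0.17). From highest to lowest mean the groups ran from 60-day WT males, 30-day KO females, 30-day KO males, 30-day WT females, 60-day WT females, 30-day WT males and 60-day KO females to 60-day KO males. The ranges overlapped in each of the 7 pairs of neighbours in that order.

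Cebpa encodes C/EBP alpha, the main C/EBP of the resting hepatocyte. As a description, 60-day males had 269, 245, 293 and 246 CPM in KO livers, against 300, 401, 393 and 343 CPM in WT livers. All KO libraries lay below all WT libraries, with means of 263 ± 23.0 CPM and 359 ± 47.0 CPM (-0.45 ± 0.13). In the other KO against WT comparisons Cebpa did not pass the threshold. It averaged 290 ± 22.7 CPM in 60-day KO females and 327 ± 32.8 CPM in WT females (-0.17 ± 0.13, adjusted p = 0.502). At 30 days it averaged 256 ± 58.7 CPM in KO males and 292 ± 65.2 CPM in WT males (-0.19 ± 0.13, adjusted p = 0.921), and 354 ± 17.0 CPM in KO females and 349 ± 29.7 CPM in WT females (0.02 ± 0.13, adjusted p = 0.977). Its spread between libraries was widest in 30-day males, with a coefficient of variation of 22.9% in KO and 22.3% in WT.

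Between the sexes Cebpa stood lower in 30-day KO males, at 241, 331, 264 and 190 CPM, against 342, 379, 345 and 351 CPM in KO females. The groups did not overlap, and the difference of -0.47 ± 0.13 missed the threshold by edgeR (adjusted p = 0.062) and passed it by DESeq2 (-0.47, adjusted p = 0.023). The number ending the titles was 2 for all 4 samples of KO females and 1 for 3 of the 4 of KO males. With it as a covariate the difference was -0.54 (adjusted p = 0.263, the highest of the alternatives). In WT at that age it averaged 292 ± 65.2 CPM in males and 349 ± 29.7 CPM in females (-0.26 ± 0.13, adjusted p = 0.441). At 60 days it averaged 263 ± 23.0 CPM in KO males and 290 ± 22.7 CPM in KO females (-0.14 ± 0.13, adjusted p = 0.53). In WT it then averaged 359 ± 47.0 CPM in males and 327 ± 32.8 CPM in females (0.14 ± 0.13, adjusted p = 0.501). With age, KO females had 274, 322, 290 and 275 CPM at 60 days, all below the 342, 379, 345 and 351 CPM at 30 days (-0.29 ± 0.13, adjusted p = 0.129). WT males averaged 359 ± 47.0 CPM at 60 days and 292 ± 65.2 CPM at 30 days (0.30 ± 0.13, adjusted p = 0.0899). Neither passed the threshold, nor did the changes in KO males (0.04 ± 0.13) and WT females (-0.09 ± 0.13).

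Cebpd encodes C/EBP delta, an acute phase member that is scarce in resting liver. As a description, 60-day KO males had 2.37, 3.03, 3.29 and 2.78 CPM, against 4.11, 3.55, 3.88 and 3.54 CPM in WT males, without overlap (-0.39 ± 0.19). In 30-day males KO libraries had 3.25, 3.82, 4.35 and 3.47 CPM and WT libraries 3.36, 2.91, 2.64 and 2.66 CPM (0.37 ± 0.18, unadjusted p = 0.0545, not past the threshold). Among 60-day females KO libraries had 3.00, 3.35, 4.92 and 4.08 CPM and WT libraries 2.84, 4.84, 6.84 and 4.46 CPM, the widest spread of any group (-0.31 ± 0.18, adjusted p = 0.357). In 30-day females the means were 3.97 ± 0.217 CPM in KO and 4.14 ± 0.666 CPM in WT (-0.06 ± 0.18, adjusted p = 0.946). In 30-day WT, males lay below females in every library, at 2.89 ± 0.332 CPM against 4.14 ± 0.666 CPM (-0.52 ± 0.18, adjusted p = 0.173). In 30-day KO the sexes had 3.72 ± 0.482 CPM in males and 3.97 ± 0.217 CPM in females (-0.09 ± 0.18, adjusted p = 0.897). At 60 days males were also at the lower mean, with 2.87 ± 0.391 CPM against 3.84 ± 0.85 CPM in KO females (-0.42 ± 0.19, adjusted p = 0.142) and 3.77 ± 0.278 CPM against 4.74 ± 1.64 CPM in WT females (-0.34 ± 0.19, adjusted p = 0.189). With age the fold changes of Cebpd had opposite signs in males: KO males had 2.87 ± 0.391 CPM at 60 days and 3.72 ± 0.482 CPM at 30 days (-0.37 ± 0.19, adjusted p = 0.147), and WT males 3.77 ± 0.278 CPM at 60 days and 2.89 ± 0.332 CPM at 30 days, without overlap (0.38 ± 0.19, adjusted p = 0.121). None of these passed the threshold by edgeR.

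Cebpg encodes C/EBP gamma and varied least between libraries, with a median coefficient of variation of 6.62% over the 8 groups. It fell with age in KO females, where it had 38.2, 34.0, 38.6 and 34.7 CPM at 60 days, against 48.4, 43.4, 42.5 and 48.9 CPM at 30 days. All 60-day libraries lay below all 30-day libraries (-0.33 ± 0.09, adjusted p = 0.00718), and the call held in all 14 alternative analyses. In the other groups Cebpg was also lower at 60 days without passing the threshold, at 40.7 ± 4.66 CPM against 45.9 ± 2.63 CPM in WT females (-0.17 ± 0.09, adjusted p = 0.138). In KO males it was at 41.1 ± 6.85 CPM at 60 days against 46.7 ± 1.29 CPM at 30 days (-0.18 ± 0.09, adjusted p = 0.129), and in WT males at 43.3 ± 2.92 CPM against 47.4 ± 2.05 CPM (-0.13 ± 0.09, adjusted p = 0.276). The change with age differed between KO and WT females by -0.16 ± 0.13 (adjusted p = 0.567). Between the sexes at 60 days it stood at 41.1 ± 6.85 CPM in KO males and 36.4 ± 2.36 CPM in KO females (0.18 ± 0.09, adjusted p = 0.197), and at 43.3 ± 2.92 CPM in WT males and 40.7 ± 4.66 CPM in WT females (0.09 ± 0.09, adjusted p = 0.52). All 4 groups of 30 days had higher means than all 4 groups of 60 days. The ranges of neighbours in the order of group means overlapped in all 7 pairs, for Cebpg as for Cebpa and Cebpd. KO minus WT was -0.003 ± 0.09 in 30-day females, -0.02 ± 0.09 in 30-day males and -0.16 ± 0.09 in 60-day females (adjusted p = 0.998, 0.998 and 0.324), and -0.07 ± 0.09 in 60-day males as a description.

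Counted over the family, 2 of 4 members passed the threshold with age in KO females, Cebpb and Cebpg, both lower, where 22.7% of all genes passed it, 10.6% higher and 12.1% lower. By edgeR 0 of 4 passed in WT females with age (33.1% of all genes), 0 of 3 testable members in KO males (28.4%) and 0 of 3 in WT males (31.5%). At an unadjusted p below 0.05 these counts were 3, 0, 1 and 2 in the same order, against 3692, 4663, 4215 and 4532 of all 11002 genes. By DESeq2 they were 2, 0, 0 and 0, and by limma on the deposited log2 values 3, 1, 2 and 1. On those log2 values the median change of all genes with age lay lower than in the edgeR fit, by -0.155 in KO females, -0.119 in WT females, -0.195 in KO males and -0.162 in WT males, so the counts by limma are not relative to the same centre. In KO against WT 0 of 4 passed in 30-day females (0.300% of all genes), 30-day males (0.0545%) and 60-day females (6.77%), by edgeR, DESeq2 and limma. There 0, 1 and 1 had an unadjusted p below 0.05, against 1175, 653 and 2286 of all genes. In males against females 0 of 4 passed by edgeR at 30 days in KO (2.24%) and in WT (2.07%), with 1 each at an unadjusted p below 0.05 (1450 and 1415 of all genes). DESeq2 called 1 in KO and 0 in WT there, and limma 0 in both. At 60 days 0 of 3 passed in KO (18.5%) and in WT (26.4%) by edgeR, DESeq2 and limma, with 1 and 0 at an unadjusted p below 0.05 (3239 and 4048 of all genes). The differences between such effects called 0 members either. They were the effect of genotype in males minus that in females at 30 days (0% of all genes), the effect of genotype at 60 minus 30 days in females (2.96%), and the change of the sex difference with age in KO (4.69%) and in WT (9.00%). At an unadjusted p below 0.05 these held 0, 1, 0 and 1 members, and DESeq2 and limma called 0 in each. Of all genes, 606, 1935, 1915 and 2532 had an unadjusted p below 0.05 in the same order.

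**Figure D2:**
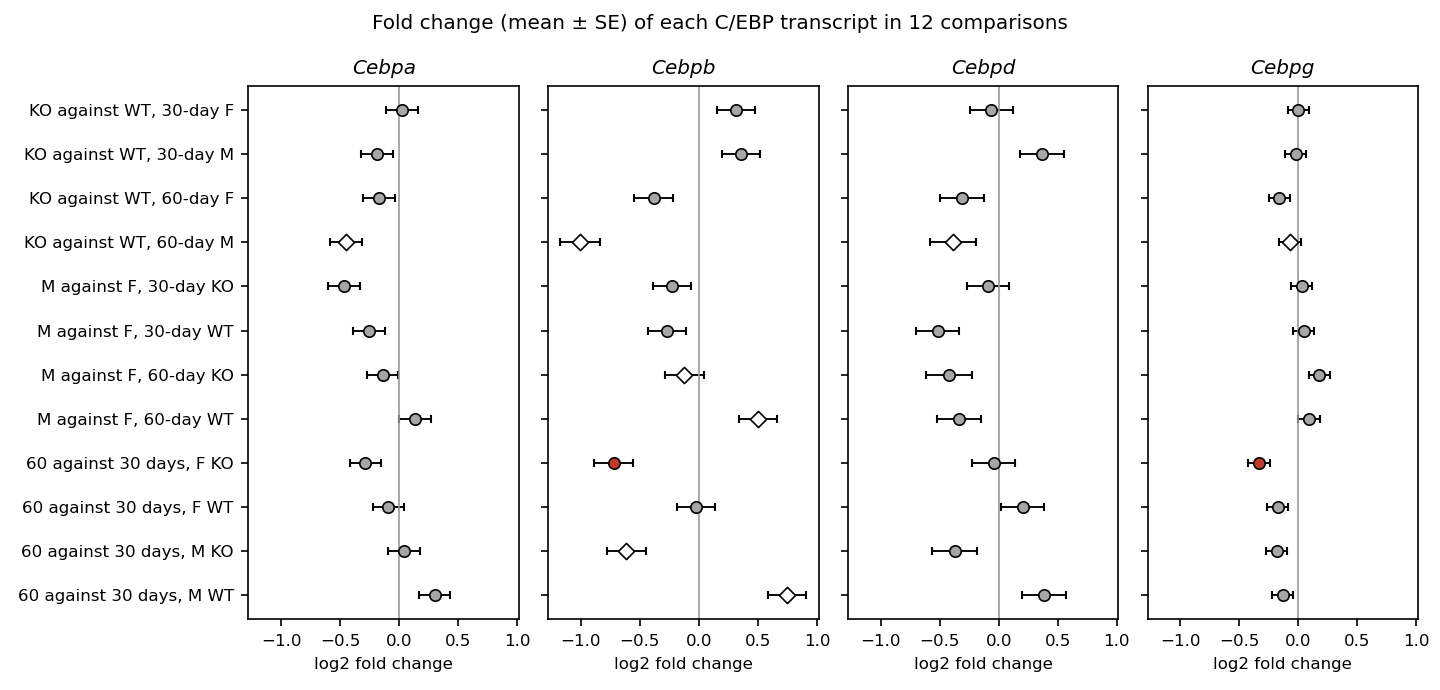
Log2 fold change (horizontal axes) with its SE for the 4 genes in 12 comparisons (rows, in each the group named first over the other). Red points passed an adjusted p of 0.05 by edgeR, grey points were tested and did not, and open diamonds are descriptions with no test. The red points are Cebpb at -0.72 and Cebpg at -0.33, both in KO females at 60 against 30 days.

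The balance between C/EBP beta and C/EBP alpha, which share target sites, was followed as the log2 ratio of Cebpb to Cebpa within a library. In 30-day males the ratio was -2.14, -2.27, -1.98 and -2.27 in KO livers, against -2.76, -2.67, -2.80 and -2.53 in WT livers. The groups did not overlap and the means differed by 0.53, with an exact two-sided permutation p = 0.0286, the smallest that 4 against 4 libraries allow, and an adjusted p = 0.2 over 7 comparisons. In 60-day males, as a description, the ratio averaged -2.82 ± 0.33 in KO and -2.25 ± 0.11 in WT, the other direction. In females it averaged -2.41 ± 0.18 in KO and -2.69 ± 0.19 in WT at 30 days (exact permutation p = 0.143, adjusted p = 0.25), and -2.85 ± 0.34 in KO and -2.63 ± 0.14 in WT at 60 days (exact permutation p = 0.314, adjusted p = 0.44). From 30 to 60 days it changed by -0.44 in KO females (exact permutation p = 0.0857, adjusted p = 0.25) and by 0.06 in WT females (exact permutation p = 0.714, adjusted p = 0.833). None of the 7 passed the threshold once adjusted. A lone comparison at the smallest possible p could not have passed, since its adjusted p over 7 is 0.2. The absence of a call is therefore no sign that the ratios were alike.

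**Figure D3:**
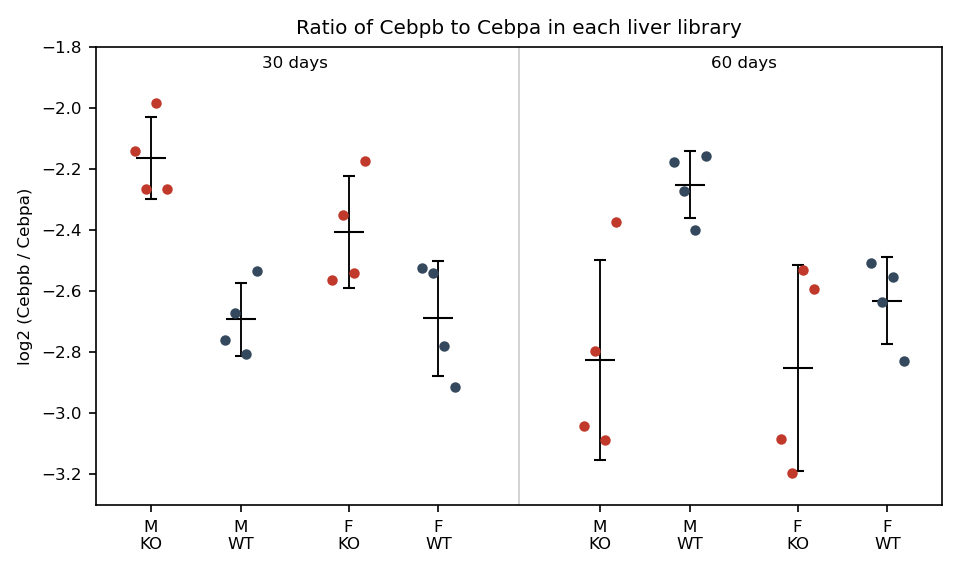
Log2 ratio of Cebpb to Cebpa (vertical axis, not starting at 0) in each library, with the mean ± SD of each group of 4, red for KO and dark blue for WT. The 4 libraries of KO males at 30 days lie between -2.27 and -1.98 and the 4 of WT males at that age between -2.80 and -2.53.

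Pooled over groups after their means were removed, libraries with more Cebpa tended to hold more Cebpb, though not in every group. After the group means were removed, Pearson's r over all 32 libraries was 0.57 and Spearman's rho 0.467, given as a description because they include Cebpb in 60-day males. The 24 libraries of the other 6 groups were taken after the data were seen. Over them r was 0.665 (permutation p = 0.00422, adjusted p = 0.0253 over 6 pairs) and rho 0.624 (permutation p = 0.00604, adjusted p = 0.0362). Without the 2 libraries farthest from the median of Cebpa r was 0.599, and 4 of the 6 groups had a positive r. The SD of log2 CPM of Cebpa was 0.332 in 30-day KO males and 0.328 in WT males. In the 4 female groups it was 0.068 to 0.140, so the 30-day males weigh most in r. Over the same 24 libraries Cebpb and Cebpd had r = 0.455 (permutation p = 0.0408, adjusted p = 0.123) and rho = 0.528 (permutation p = 0.0275, adjusted p = 0.0825), and r was 0.418 without the farthest 2. Adjusted p for the other 4 pairs lay between 0.237 and 0.462 by Pearson's r. The genes of a pair share their library, its depth and its cell makeup.

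Among 10101 genes averaging at least 1 CPM, the 5 whose levels followed a member most closely over the 32 libraries are given with Pearson's r, and with r after group means were removed in brackets, as a description. Rtp3, a transport protein of liver, came first for Cebpb at 0.716 (0.742), followed by Ammecr1l at 0.696 (0.59), the stress-responsive kinase Plk3 at 0.688 (0.526), the transcription factor Srf at 0.667 (0.472) and the lysosomal regulator Tfe3 at 0.64 (0.587). Cebpa was the ninth of these genes, at 0.63. The closest to Cebpa were Zfp787 at 0.774 (0.76), Rassf7 at 0.748 (0.542), Uspl1 at 0.718 (0.606), Tbc1d10b at 0.692 (0.614) and Prkab1, a subunit of AMP-activated kinase, at 0.686 (0.547). Slc38a2, an amino acid carrier, was closest to Cebpg at 0.806 (0.709), followed by Celf1 at 0.798 (0.658), Ubn1 at 0.791 (0.734), Trib3 at 0.771 (0.658) and Mtfr2 at 0.769 (0.538). For Cebpd they were Cnot3 at 0.703 (0.419), RGD1559896 at 0.678 (0.407), Arhgef3 at 0.637 (0.516), Plekhf1 at 0.622 (0.591) and the transcription factor Maf at 0.621 (0.517).

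The rest of the C/EBP pathway was read from lists of dimer partners, regulators, inputs and targets. Of 12 tested dimer partners and related factors, 1 passed the threshold in 30-day KO females by edgeR (0.300% of all genes), 1 by DESeq2 and 0 by limma. At an unadjusted p below 0.05 there were 6, against 1175 of all 11002 genes. In 30-day KO males (0.0545% of all genes) and 60-day KO females (6.77%) 0 passed by edgeR, DESeq2 and limma. At an unadjusted p below 0.05 there were 1 and 0, against 653 and 2286 of all genes. The gene called in 30-day KO females was Fos, a partner in AP-1, which fell to 0.267 ± 0.196 CPM, against 1.62 ± 0.98 CPM in WT females (-2.58 ± 0.55, adjusted p = 0.0334), and kept its call in 2 of 8 fits that left out a library. In 60-day males, as a description, Atf3, a stress-induced factor, was at 1.19 ± 0.523 CPM in KO and 4.18 ± 1.815 CPM in WT (-1.81 ± 0.38). Cebpe, the granulocyte member, had 0 to 5 reads per library and was not tested. Cebpz, a distant namesake, and Ddit3, which encodes the inhibitory member CHOP, did not pass the threshold in any KO against WT comparison. Atf4, a partner of C/EBP gamma, had 134 ± 16.8 CPM in 60-day KO males and 184 ± 40.5 CPM in WT males (-0.45 ± 0.13, a description). Of 10 regulators of C/EBP proteins, such as Tribbles proteins and their ligase, 0 passed in any KO against WT comparison by edgeR. At an unadjusted p below 0.05 there were 0 except 4 in 60-day females (2286 of all genes), where DESeq2 called 1 and limma 0.

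Inputs to the family were lower in 60-day KO females in 1 case. Il6st, the signalling receptor chain of interleukin 6 known as gp130, fell to 261 ± 22.5 CPM in KO females, against 434 ± 110 CPM in WT females, without overlap (-0.73 ± 0.12, adjusted p = 0.000421). Fitted on the 8 libraries compared it missed the threshold (adjusted p = 0.0718). It was the 1 of 18 genes on the list of cytokine, cyclic AMP and glucocorticoid inputs to pass the threshold by edgeR, with 3 by DESeq2 and 1 by limma, where 3.29% of all genes were called lower and 3.48% higher. At an unadjusted p below 0.05 there were 6, against 2286 of all 11002 genes. Of the 18 fold changes 16 were negative, with a median of -0.18 against 0.01 over all genes. Stat3, which relays the interleukin 6 signal, was at 146 ± 16.4 CPM in KO females and 187 ± 26.1 CPM in WT females and narrowly missed the threshold (-0.36 ± 0.11, adjusted p = 0.0504). Socs3, its feedback inhibitor, was at 3.74 ± 1.05 CPM in KO females and 6.80 ± 2.22 CPM in WT females (-0.86 ± 0.27, adjusted p = 0.0516). Nr3c1, the glucocorticoid receptor, did not pass it in females (-0.02 ± 0.12, adjusted p = 0.955) and was at -0.11 ± 0.12 in 60-day males as a description. At 30 days 0 of 18 passed in females and 0 in males by edgeR, DESeq2 and limma, with 3 and 1 at an unadjusted p below 0.05, against 1175 and 653 of all genes.

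Of 23 tested genes for plasma proteins that C/EBP factors are known to drive, mainly in the acute phase, 9 fell and 0 rose in 60-day KO females, and 14 did not pass the threshold. Of all genes 3.29% were called lower and 3.48% higher. The median of the 23 fold changes was -0.34 against 0.01 over all genes, and 18 were negative and 5 positive, with albumin, Alb, at 0.27 and transthyretin, Ttr, at 0.32 among those above 0. Orm1, alpha-1-acid glycoprotein, ranged from 99.6 to 232 CPM in KO females and from 404.5 to 857 CPM in WT females (-1.88 ± 0.29, adjusted p = 0.000223). Saa4, a serum amyloid A protein, ranged from 360 to 568 CPM in KO and from 758 to 1103 CPM in WT females (-1.07 ± 0.13, adjusted p = 9.77e-06). Itih3, a hyaluronan-binding plasma protein, was at 5183 ± 260 CPM in KO and 6893 ± 559 CPM in WT females (-0.41 ± 0.08, adjusted p = 0.00241). F9, coagulation factor IX, was at 693 ± 87.6 CPM in KO and 898 ± 93.8 CPM in WT females (-0.38 ± 0.08, adjusted p = 0.00576). The other 5 were the 3 fibrinogen chains Fga, Fgb and Fgg, the protease inhibitor Serpina3n and haptoglobin, Hp, with fold changes between -0.89 and -0.33. Of the 9 calls, 5 held in all 8 fits that left out a library, and 5 genes were called without the library that carried photoreceptor transcripts, where Fga, Fgb, Hp and Serpina3n lost theirs (adjusted p = 0.0715, 0.119, 0.118 and 0.0536). Fitted on 16 libraries of 60-day rats 6 were called, and fitted on the 8 libraries compared 1.

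The same list had 0 calls at 30 days by edgeR in females (median -0.09) and in males (median -0.10), DESeq2 calls of 1 and 0, and 0 by limma. At an unadjusted p below 0.05 there were 3 and 2, against 1175 and 653 of all genes. In 60-day males, where the contrast chose the members, 19 of 23 fold changes were negative with a median of -0.08, and values ran from -0.63 to 0.51. Kupffer cell markers had a median of -0.17 in 60-day KO against WT females, with 0 of 13 past the threshold by edgeR, and summed to 707.8 to 989.1 CPM in KO and 814.8 to 1286 CPM in WT females. Their part in the 9 lower transcripts was not tested.

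Of 18 metabolic targets 2 fell and 0 rose in 60-day KO females, where 3.29% of all genes were called lower and 3.48% higher. Pck1, the rate-limiting enzyme of gluconeogenesis, was at 586 ± 173 CPM in KO females and 1654 ± 636 CPM in WT females, without overlap (-1.50 ± 0.33, adjusted p = 0.00675). Ass1, a urea cycle enzyme, was at 1742 ± 305 CPM in KO and 2619 ± 509 CPM in WT females (-0.59 ± 0.14, adjusted p = 0.0119). The list's median was -0.04. At 30 days 0 of 18 passed in females and in males by edgeR, DESeq2 and limma, with 0 and 7 at an unadjusted p below 0.05, against 1175 and 653 of all 11002 genes. As a description, 16 of the 18 fold changes were negative in 60-day males, with a median of -0.24 against 0.00 over all genes. At 30 days 12 of 18 were negative in each sex, with medians of -0.22 in males and -0.07 in females. Of 16 other liver-enriched transcription factors 0 passed in 60-day females by edgeR, DESeq2 and limma, with 2 at an unadjusted p below 0.05, against 2286 of all genes.

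**Figure D4:**
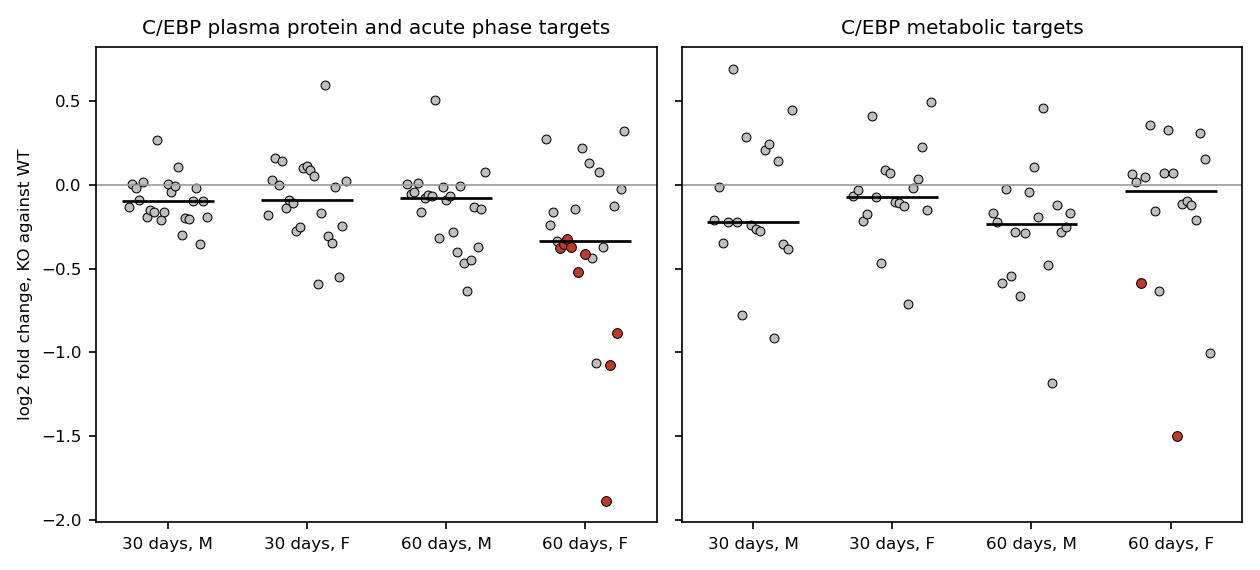
Log2 fold change of KO against WT (vertical axis) for each tested gene of the plasma protein list (left, 23 genes) and the metabolic list (right, 18 genes) in the 4 combinations of age and sex. Lines are medians and red points passed an adjusted p of 0.05 by edgeR. The 9 red points of the plasma protein list in 60-day females lie between -1.88 and -0.33.

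With age in KO females, where Cebpb fell, 5 of the 23 plasma protein genes rose and 5 fell, and of 18 metabolic genes 3 rose and 1 fell, where 10.6% of all genes were called higher and 12.1% lower. These 4 counts were the same without the library that carried photoreceptor transcripts. In WT females 8 plasma protein genes rose and 3 fell (16.0% of all genes higher, 17.1% lower). In KO males 12 rose and 0 fell (14.0% higher, 14.5% lower), and in WT males 13 rose and 0 fell (15.7% higher, 15.8% lower). These comparisons share no libraries across genotypes or sexes. The differences between these changes were tested by edgeR for the plasma protein list. For KO minus WT females, 0 genes were called higher and 4 lower (2.96% of all genes called). For males minus females, 10 were higher and 1 lower in KO (4.69%), and 7 higher and 2 lower in WT (9.00%). For KO minus WT males, which include the contrast that chose the members, 0 were called, where 1 of all 11002 genes was.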

How the data were processed

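Liver RNA was prepared with Trizol and sequenced after a stranded library preparation for messenger RNA, per the labels' protocols. STAR, Cufflinks, limma and the assembly Rnor_5.0 are named in the submitters' processing notes, with no role or version. The authors deposited a table of counts of reads per gene (17327 genes, 2 further lines for unassigned reads) and a table of log2 values. The deposited log2 values, of 11344 genes, equal log2 CPM recomputed from the counts with 0.5 added to the count and 1 to the total over those genes, to within 5.0e-09. Unassigned reads made up 18.05% to 21.18% (no feature) and 0.262% to 0.648% (ambiguous) of a library and stayed out of library sizes. Members and lists were chosen with earlier results of these data known.

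The main test was edgeR 4.0.16 (R 4.3.3), robust quasi-likelihood after TMM scaling and filterByExpr at a minimum count of 10, with 8 group means over 32 libraries, 24 residual degrees of freedom, biological coefficient of variation 0.148. The fit was tested on simulated data. Alternatives were DESeq2 1.42.0, limma 3.58.1 on the deposited log2 values, other scaling factors, no filter, fits to 16 or 8 libraries, the title number at 30 days, and each library left out. Ratios and correlations used log2 CPM with a prior count of 2 (0.5 as an alternative for ratios), with exact permutation of 8 libraries or 100000 permutations within groups. The p-values of correlations leave out the 60-day males, a choice made after the data were seen. Named genes were all members and, per list, at most 4 called genes with the smallest adjusted p per KO against WT comparison; other genes, such as Stat3, Socs3, Atf4 and the remaining called plasma proteins, were named after their values were seen. Promoters and transcript lengths come from RefSeq (GRCr8), whereas the submitters' notes name Rnor_5.0, so no coordinates of the counting are given.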

Additional observations from a re-analysis of the deposited data

Results flagged for a closer look

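Cebpb in 60-day KO males had 1 library far from the other 3, at 47.4 CPM against 32.6 to 35.1 CPM. Such a gap arises by chance in about 1 of 20 groups, and 40 groups were looked at. Without it the fold change of KO against WT males, a description, was -1.14. For Cebpb, every KO library moved one way from the WT mean at one age and the other way at the other age in females, and the difference of the effects on the mean log2 CPM scale was -0.70, which the test above put at adjusted p = 0.0918. Every 60-day KO male library lay below the 30-day KO male mean of Cebpb and every 60-day WT male library above the 30-day WT male mean. The differences with age differed by -1.36, although the ranges of KO males at the 2 ages overlapped. The sex difference of Cebpb in WT was 0.79 higher at 60 than at 30 days, with every male library below the female mean at 30 days and above it at 60 days. Cebpd showed the same kind of opposite change in males: the effect of genotype differed between 60 and 30 days by -0.74, and the change with age differed between KO and WT by -0.74, the same 4 groups read in the other order. The last 4 differences involve 60-day males, which the choice of members used, and were not tested.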

How the results depend on the processing

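Of 1344 alternative values of the 4 members and their ratio, 0 lost a call and 15 gained one. Only the 2 results called in the main fit, Cebpb and Cebpg with age in KO females, could lose a call. Each had 14 alternatives. A ratio test with a library left out could not reach the threshold at any values. Among the values described without a test 9 changed sign. The other 1320 were counted as the same. For tested values this means the same side of the threshold, and a sign change without a call was not counted. No paired analysis was possible because replicate numbers here follow accession order and the sample labels link no rats across groups. With age in KO females Cebpa passed by limma on the deposited log2 values (-0.44) and in the fit to the 8 libraries compared (-0.27). Limma also called, with age, Cebpd (-0.56) and Cebpg (-0.39) in KO males, and Cebpg in WT females (-0.30) and WT males (-0.29), where the median of all genes moved by -0.119 to -0.195 between the fits, so these gained calls are not relative to the same centre. Upper-quartile scaling called Cebpg with age in WT females (-0.24) and KO males (-0.23), and DESeq2 called Cebpa in 30-day KO males against females (-0.47). With each library left out, the last ran from -0.61 to -0.35 (called without KO male replicate 2), and Cebpa with age in WT males from 0.19 to 0.43 (called without 30-day WT male replicate 3 or 60-day WT male replicate 1). Cebpd in 60-day WT males against females ran from -0.52 to -0.11 (called without WT female replicate 1), Cebpg in 60-day KO males against females from 0.10 to 0.28 (called without KO male replicate 2), and Cebpg with age in KO males from -0.26 to -0.079 (called without 60-day KO male replicate 4). Sign changes in values described without a test came with 1 library left out: the change of the sex difference of Cebpb with age in KO, 0.11 (-0.037 to 0.22, negative at -0.037 and -0.027), the genotype effect of Cebpd in males minus females at 60 days, -0.08 (-0.31 to 0.095, positive at 0.095 and 0.063), Cebpg in 60-day KO against WT males, -0.07 (-0.15 to 0.032), its genotype effect at 60 minus 30 days in males, -0.05 (-0.13 to 0.054), and the ratio in 60-day KO males against females, 0.03 (-0.12 to 0.13, negative at -0.050, -0.09 and -0.12). Some tested values that were not called also changed sign, with a library left out or in other alternatives. Among them were the genotype effect of Cebpb in males minus females at 30 days, 0.04 (-0.20 to 0.18), and Cebpa with age in KO males, 0.04 (-0.13 to 0.19). The cause was not tested. The correlation of Cebpa and Cebpb without 60-day males (0.665) was chosen after seeing the data. The number of genes called over all genes in KO against WT was 745 in 60-day females, with 277 in the fit to 16 libraries, 56 in that to 8 and 399 without replicate 1 of the KO females. It was 33 (4 to 92 over the alternatives) in 30-day females, 6 (1 to 26) in 30-day males and 23 (2 to 65) in 60-day males. Of the list genes named as called in 60-day females, Saa4 alone passed in the fit to the 8 libraries compared (adjusted p = 0.0104), and the others had adjusted p from 0.0718 to 0.224. Cebpd, with 30 to 105 reads per library, is the member whose precision depth limits most.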

Other observations

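Of 13 tested transcripts of the clock list, 4 rose and 1 fell in 60-day KO females, where 3.48% of all genes were called higher and 3.29% lower. Per2, a negative regulator of the clock, was at 36.7 ± 10.4 CPM in KO and 12.2 ± 4.82 CPM in WT females (1.595 ± 0.28, adjusted p = 0.000987), and Per3 at 7.51 ± 4.54 CPM in KO and 2.14 ± 0.491 CPM in WT females (1.80 ± 0.31, adjusted p = 0.000696). Dbp, an output factor of the clock with a leucine zipper of the PAR type, was at 14.6 ± 13.6 CPM in KO and 3.02 ± 1.25 CPM in WT females (2.27 ± 0.45, adjusted p = 0.0026). Tef, of the same type, was at 33.4 ± 12.4 CPM in KO and 17.4 ± 5.00 CPM in WT females (0.94 ± 0.18, adjusted p = 0.00188). Npas2 fell (-0.54 ± 0.15, adjusted p = 0.0299) and kept its call in 2 of 8 fits that left out a library, with an adjusted p = 0.0779 without the KO library that carried photoreceptor transcripts. The labels give no hour of collection, and its part in the values of Cebpb was not tested. In 30-day KO females 13 of 15 immediate early genes had a negative fold change, with a median of -0.61 against 0.01 over all genes. Fos passed the threshold. The median of the stellate cell and fibroblast markers was also negative there, at -0.63, and 1 of 7 tested was called lower, where 0.300% of all genes were called. These markers summed to 786.9 to 931.4 CPM in KO and 989.7 to 1357 CPM in WT females, with Col1a2 at 0 in both. Their part in the immediate early genes was not tested.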
